A study of Mus musculus with 12 samples.

Results

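The FoxO and atrophy genes described here are the 10 genes *Foxo1*, *Foxo3*, *Fbxo32*, *Trim63*, *Ddit4*, *Sesn1*, *Sesn3*, *Irs2*, *Bnip3* and *Gadd45a*, chosen by name as members of the FoxO and muscle atrophy program. They were chosen with earlier results of these data known. Counts over them, given below beside shares of all genes, are therefore a description and not a test of the set. All 10 were found in each of the 3 expression tables, which hold 27319 genes (aldosterone against vehicle), 27631 (aldosterone against spironolactone) and 27598 (spironolactone against vehicle). The study asked how fibroblasts of skeletal muscle respond to aldosterone, a steroid agonist of the mineralocorticoid receptor. The fibroblasts came from hindlimb muscle of 3-day-old wild-type C57 BL/10 mice, were separated from myoblasts by their fast adherence and were used at passage 2. All cells spent 24 h in medium with charcoal-stripped serum, which removes steroids, and then 48 h with 1 µM aldosterone, 1 µM spironolactone (an antagonist of the mineralocorticoid receptor) or vehicle alone, each with 0.01% DMSO. Poly(A) RNA was sequenced from 4 libraries per treatment. These were taken here to be 2 plates of pooled fibroblasts from each of 2 mice. The sample titles name no mouse, so this reading could not be checked from them. On this reading the p-values measure the spread between plates of 2 mice. Each library carries a sample number and a biological replicate number, each 1 or 2, and values below are given in the order sample 1 replicates 1 and 2, then sample 2 replicates 1 and 2.

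FoxO proteins are transcription factors that insulin and growth factors switch off: AKT, and the related kinase SGK1, phosphorylate them and keep them out of the nucleus. When signalling falls, as in fasting, denervation or glucocorticoid excess, nuclear FoxO in muscle fibres activates ubiquitin ligases and autophagy genes, and the fibre loses protein. Glucocorticoids drive part of this program through the glucocorticoid receptor, which aldosterone also binds at high concentration, and the program is known far better in fibres than in fibroblasts.

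The promoter sequences of *Trim63*, *Irs2*, *Sesn1* and *Bnip3* are shown because they hold the matches found to the elements named in the literature on this program. RefSeq promoter windows (build GRCm38.p6), running from 250 bases before the transcription start to 50 bases after it, were found for 9 of the 10 genes, with 2 starts for *Sesn1*, and so 10 windows in all. Capitals mark the FoxO element GTAAACA, the insulin response element CAAAACA, the steroid receptor element AGAACA and the E-box CACGTG, each on either strand.
Trim63, chr4:134314870-134315169, + strand: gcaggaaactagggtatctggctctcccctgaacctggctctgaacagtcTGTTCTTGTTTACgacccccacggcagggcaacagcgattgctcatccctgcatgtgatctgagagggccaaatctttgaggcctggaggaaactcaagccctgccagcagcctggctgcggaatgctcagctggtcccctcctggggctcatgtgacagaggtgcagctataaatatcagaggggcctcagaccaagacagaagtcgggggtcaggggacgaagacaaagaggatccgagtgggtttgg
Irs2, chr8:11008880-11009179, - strand: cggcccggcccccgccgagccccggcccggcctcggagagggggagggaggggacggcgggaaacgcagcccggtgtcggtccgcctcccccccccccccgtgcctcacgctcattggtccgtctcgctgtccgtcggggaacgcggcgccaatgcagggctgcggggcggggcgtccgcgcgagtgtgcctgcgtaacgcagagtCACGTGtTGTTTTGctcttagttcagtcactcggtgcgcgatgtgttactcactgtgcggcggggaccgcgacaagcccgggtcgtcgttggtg
Sesn1, first start, chr10:41810324-41810623, + strand: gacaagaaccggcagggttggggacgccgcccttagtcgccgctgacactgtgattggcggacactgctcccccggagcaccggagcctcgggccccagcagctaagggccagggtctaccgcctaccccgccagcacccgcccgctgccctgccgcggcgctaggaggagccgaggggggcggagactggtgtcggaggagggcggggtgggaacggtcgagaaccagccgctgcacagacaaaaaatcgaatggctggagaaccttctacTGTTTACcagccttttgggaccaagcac
Bnip3, chr7:138909457-138909756, - strand: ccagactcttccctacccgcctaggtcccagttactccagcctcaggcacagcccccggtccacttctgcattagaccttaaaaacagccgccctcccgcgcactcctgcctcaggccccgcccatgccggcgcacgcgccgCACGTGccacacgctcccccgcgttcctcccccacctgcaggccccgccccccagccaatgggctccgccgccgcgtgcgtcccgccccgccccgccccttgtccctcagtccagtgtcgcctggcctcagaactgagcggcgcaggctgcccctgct
In the *Trim63* window the receptor element began at position 51 and the FoxO element at position 57, counted from the 5′ end of the window, and both lay on the opposite strand with no base between them. In the *Irs2* window the E-box began at position 207 and the insulin response element at position 214, and in the *Bnip3* window an E-box began at position 143. The FoxO element of the *Sesn1* window began at position 273, after the transcription start. The FoxO element was in 2 of the 10 windows and in 3.65% of all 32851 RefSeq windows, the insulin response element in 1 and 6.28%, the receptor element in 1 and 19.0%, and the E-box in 2 and 7.15%. The windows of *Foxo1*, *Foxo3*, *Ddit4*, *Sesn3* and *Gadd45a* and the second window of *Sesn1* held none of these letters. A match is a string of letters and not a measured binding site.

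The libraries held 19136923 to 30219185 reads assigned to genes (median 23833430), recovered from the normalized counts in the tables. A normalized count is a read count divided by the size factor of its library within a table, so it does not correct for gene length. Levels were compared between genes as RPKM, which scales reads by library and by gene length. The fibroblast markers (*Col1a1* and others) summed to 5322.1 to 5836.3 RPKM per vehicle library, 4195.1 to 4813 with aldosterone and 4868.3 to 5456.5 with spironolactone. Most of this was the collagen *Col1a1*, at a mean of 3648.5 RPKM with vehicle and 2904.9 with aldosterone. The marker *Pdgfra* went the other way, from 13.2 to 24.8, while the other fibroblast markers listed had lower means with aldosterone. Of 11 myogenic markers, 8 were in all 3 tables. They summed to 14.1 to 19.9 RPKM with vehicle, 5.36 to 11 with aldosterone and 14.3 to 22.5 with spironolactone, and most of this was *Acta1*, skeletal α-actin. The defining myoblast factors *Myod1* and *Myog* had at most 7 and 3 reads in a library. Summed endothelial markers were at 0.213 to 0.536 RPKM with vehicle and 0.693 to 1.29 with aldosterone, and glial markers at 5.99 to 7.59 and 7.79 to 11.4. Most of the endothelial sum was *Kdr* (mean 0.21 with vehicle, 0.782 with aldosterone). *Cdh5* and *Vwf* were also higher, and *Pecam1* and *Tie1* were lower. Most of the glial sum was *S100b* (6.19 and 8.84). Macrophage (5.43 to 7.68 and 5.78 to 6.66), mural (32.8 to 47.6 and 26.9 to 43.8) and adipocyte markers (0.598 to 1.93 and 1.74 to 4.3) overlapped. The part of these marker levels in the results below was not tested. In bulk RNA, fewer cells of a type and less RNA per cell cannot be told apart.

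Aldosterone raised 5 of the 10 genes over vehicle and lowered 2. *Sesn1*, a stress-induced inhibitor of mTORC1, doubled; the mitophagy receptor *Bnip3*, the insulin receptor substrate *Irs2*, the transcription factor *Foxo3* and the mTORC1 inhibitor *Ddit4* rose by smaller amounts. *Sesn3*, the sestrin best known as a FoxO target, and the growth arrest gene *Gadd45a* fell. Neither muscle ubiquitin ligase passed the test, and nor did *Foxo1*. Across all genes, 5.68% were higher and 4.74% lower at an adjusted p of at most 0.05 (limma on log2 of normalized count + 1, Benjamini-Hochberg over all genes of the table). All shares of genes given here include genes with few reads, which are seldom called. Of the 27319 genes in this comparison, 15245 averaged 10 or more normalized counts, as did 9 of the 10. Shares among such genes alone are not given. With the further threshold of a log2 fold change of 1, 1.4% of genes were higher and 0.666% lower, and *Sesn1* alone of the 10 passed both.

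**Figure D1:**
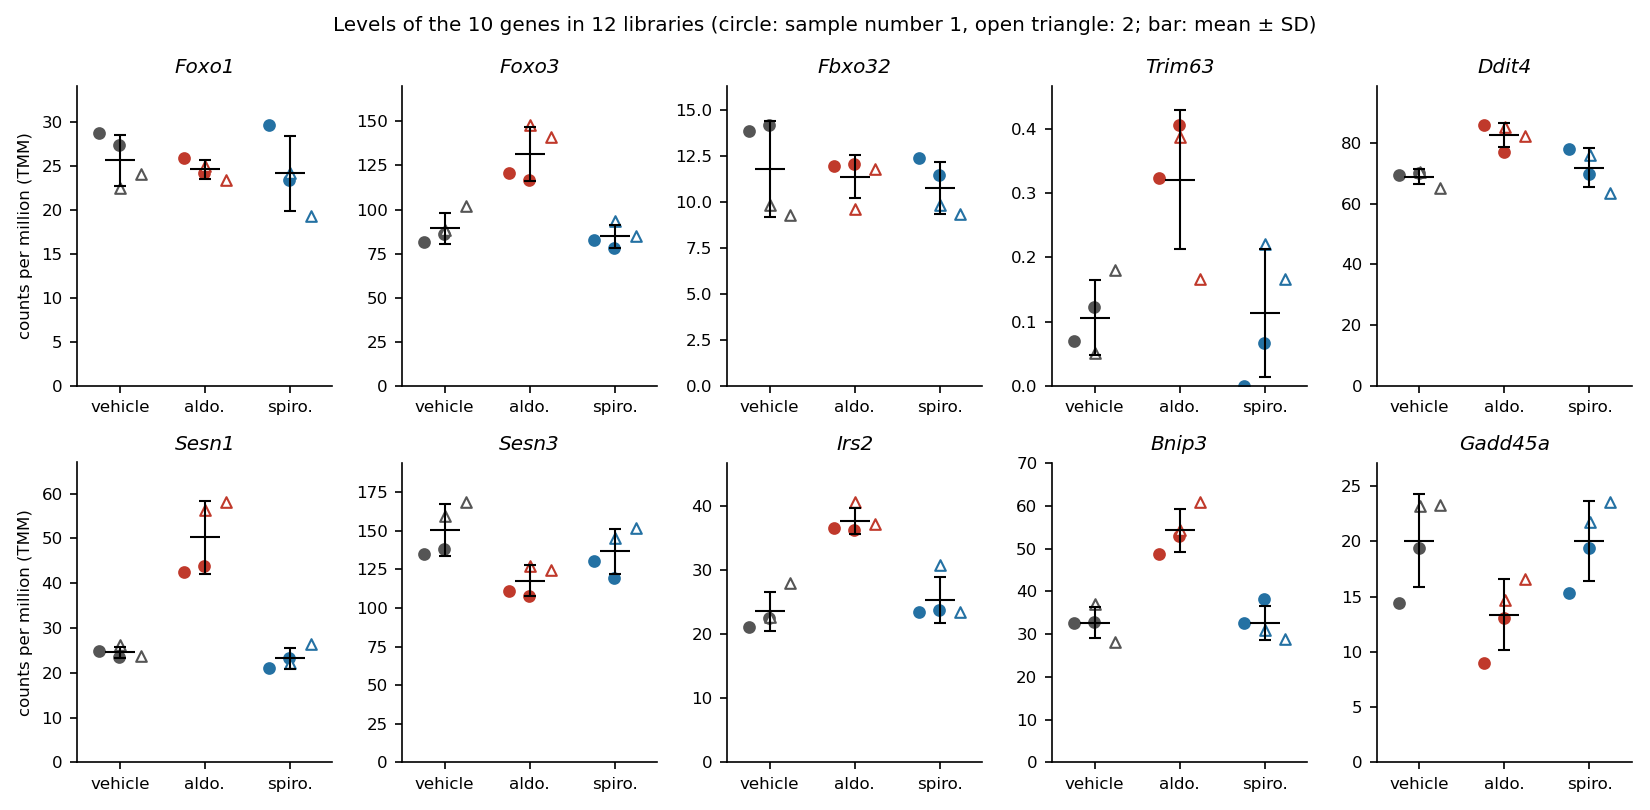
CPM (linear axis from 0, scaled by TMM) of the 10 genes in each library, by treatment; circles are sample number 1, open triangles sample number 2, and the black bars give the mean ± SD of 4 libraries. All 4 aldosterone libraries lie above all vehicle and spironolactone libraries for *Foxo3*, *Sesn1*, *Irs2* and *Bnip3*, while *Fbxo32* overlaps between treatments and *Trim63* stays below 0.5.

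Levels per length set the 10 genes apart before any treatment effect. In vehicle, *Ddit4* was highest at 39.2 RPKM, followed by *Bnip3* at 14.4, *Foxo3* at 11.8, *Gadd45a* at 11.4, *Sesn3* at 9.85, *Sesn1* at 6.19, *Irs2* at 3.74, *Foxo1* at 2.97, *Fbxo32* at 1.69 and *Trim63* at 0.0374 (means of 4 libraries). The ranges of neighbours in this order overlapped from *Bnip3* through *Sesn3* and were separate for the others. *Ddit4* lay above 95.8% of all genes in mean RPKM over the 12 libraries. With aldosterone *Sesn1* ranked 4, at 12.6 RPKM, above all *Sesn3* libraries (mean 7.7), whereas in vehicle every *Sesn3* library lay above every *Sesn1* library.

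Among the transcription factors, *Foxo3* (ENSMUSG00000048756, mm39 chromosome 10, 42057837 to 42152751) had normalized counts of 1947.2, 2048.2, 2119.7 and 2415.2 in vehicle and 2890.9, 2771.0, 3518.9 and 3317.9 with aldosterone. The lowest aldosterone library exceeded the highest vehicle library. The log2 fold change was 0.55 ± 0.08 (SE), a fold of 1.46, with an adjusted p of 0.000198. When the plates of a sample number were averaged, leaving 2 values per group, the adjusted p was 0.0588. That fit, used below as well, had no term for sample number. *Foxo1* (ENSMUSG00000044167, chromosome 3, 52175757 to 52260642) had 686.3, 653.8, 538.2 and 571.1 normalized counts in vehicle and 620, 574.2, 593.9 and 553.4 with aldosterone. The groups overlapped, and the log2 fold change of -0.06 (95% interval -0.24 to 0.12, adjusted p = 0.743) covers 0. With aldosterone the mean levels of *Foxo3* and *Foxo1* were 17.4 and 2.84 RPKM. Of the other FoxO factors, *Foxo4* rose from 694.5 ± 56.0 to 892.0 ± 38.1 normalized counts (SD, n = 4; log2 fold change 0.36 ± 0.07, adjusted p = 0.0024), and *Foxo6*, at 7.81 ± 2.21 and 5.92 ± 2.54 in vehicle and aldosterone, had an adjusted p of 0.689. Over all 4 factors 2 were higher, 0 lower and 2 did not pass.

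The sestrins and *Ddit4* restrain mTORC1, the kinase complex that promotes protein synthesis. *Sesn1* (ENSMUSG00000038332, chromosome 10, 41685931 to 41784420) had 592.3, 562.1, 629.7 and 564.6 normalized counts in vehicle and 1019.2, 1043.5, 1338.7 and 1370.5 with aldosterone. The lowest aldosterone library was above the highest vehicle library, and the sample 2 libraries were the highest with aldosterone but not set apart in vehicle. The means were 587.2 ± 31.5 and 1193 ± 187.4, and the log2 fold change was 1.01 ± 0.09 (adjusted p = 1.41e-06). Leaving out each library in turn gave adjusted p from 0.00043 to 0.00356. *Ddit4* (ENSMUSG00000020108, chromosome 10, 59785491 to 59787656) had 1659.4, 1669.6, 1690.2 and 1543.6 in vehicle and 2055.1, 1834.5, 2026.5 and 1937.2 with aldosterone. All aldosterone libraries were higher, though the change was small (log2 fold change 0.26 ± 0.06, adjusted p = 0.00715; 0.144 with the plates averaged).

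*Sesn3* (ENSMUSG00000032009, chromosome 9, 14186363 to 14244397) went the other way from *Sesn1*, with 3210.6, 3293.3, 3829.4 and 3997.5 normalized counts in vehicle and 2651.9, 2550.3, 3029.1 and 2937.2 with aldosterone. Every aldosterone library was below every vehicle library, and the log2 fold change was -0.36 ± 0.08 (adjusted p = 0.00548). The adjusted p was 0.0733, 0.0972 and 0.0615 without aldosterone libraries 1_1, 1_2 and 2_2 (sample number, then replicate number), 0.0864 and 0.0861 without vehicle libraries 2_1 and 2_2, and 0.205 with the plates averaged. With a library left out, the log2 fold change ran from -0.407 to -0.302. *Sesn2*, the sestrin that the stress factor ATF4 induces, fell as well, from 4055.4 ± 393.8 to 3281.6 ± 192.4 normalized counts (log2 fold change -0.30 ± 0.07, adjusted p = 0.00941), with overlapping groups. The 3 sestrins of the mouse thus changed in both directions.

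*Irs2* (ENSMUSG00000038894, chromosome 8, 11034681 to 11058458) couples the insulin receptor to PI3K. It had 503.4, 539.6, 544.3 and 663.4 normalized counts in vehicle and 875.8, 863.3, 969.5 and 876.8 with aldosterone. The groups were separate, with a log2 fold change of 0.68 ± 0.08 (adjusted p = 3.12e-05). *Bnip3* (ENSMUSG00000078566, chromosome 7, 138492565 to 138511248), which recruits autophagosomes to mitochondria and is induced by both FoxO3 and HIF1, had 778.5, 783.6, 889.6 and 668.8 in vehicle and 1167.7, 1258.3, 1294.5 and 1434.8 with aldosterone. These groups were separate as well (log2 fold change 0.73 ± 0.08, adjusted p = 1.82e-05). For *Sesn1*, *Irs2* and *Bnip3* the adjusted p stayed at most 0.0188 in all 20 alternatives, among them the averaged plates.

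*Gadd45a* (ENSMUSG00000036390, chromosome 6, 67012080 to 67014441), a target of p53, FoxO and ATF4 that slows the cell cycle and, in denervated muscle, remodels nuclei, had 344.0, 461.5, 556.5 and 551.7 normalized counts in vehicle and 215.7, 310.2, 348.9 and 391.7 with aldosterone. The groups overlapped as a whole, but within each sample number both aldosterone libraries were below both vehicle libraries. That sets 2 libraries against 2, and the share of all genes separated in this way was not counted. The log2 fold change was -0.60 ± 0.17 with an adjusted p of 0.0294. The call was lost when any 1 of the 8 libraries was left out (adjusted p from 0.0675, without vehicle library 1_1, to 0.27, without vehicle library 2_2). The log2 fold change then ran from -0.751 to -0.429. In those fits limma's prior degrees of freedom, shared by all genes, were 2.36 to 3.23, against 9.75 with all libraries. With the sample number as a block the adjusted p was 1.51e-05, and with the plates averaged it was 0.252.

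The muscle ubiquitin ligases that define the atrophy program were the lowest of the 10 genes in RPKM, with *Fbxo32* above 57.7% of all genes and *Trim63* above 16.4%. *Fbxo32* (atrogin-1; ENSMUSG00000022358, chromosome 15, 58039275 to 58078328) had 332.2, 337.6, 235.5 and 220.1 normalized counts in vehicle and 288.1, 288.1, 229.3 and 277.1 with aldosterone. The sample 1 libraries were highest in vehicle and the groups overlapped (log2 fold change -0.03, 95% interval -0.33 to 0.26, adjusted p = 0.927). *Trim63* (MuRF1; ENSMUSG00000028834, chromosome 4, 134042431 to 134056940) had 1.68, 2.93, 1.22 and 4.29 normalized counts in vehicle and 7.75, 9.63, 9.21 and 3.92 with aldosterone, so a library differed from another by a few reads. Its log2 fold change of 1.31 ± 0.49 had an adjusted p of 0.114, with an interval from 0.28 to 2.34 and overlapping groups. The summed myogenic markers given above were lower in aldosterone libraries, and their part in these values was not tested.

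Groups that do not overlap were counted as a second description. The 4 aldosterone libraries lay above the 4 vehicle libraries for 5 of the 10 genes and below for 1, against 7.55% and 6.9% of all genes. The median log2 fold change over the 10 genes was 0.40, or 0.26 over the 9 that averaged 10 or more normalized counts, against -0.006 over all genes.

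Against spironolactone, aldosterone raised *Sesn1*, *Bnip3*, *Foxo3* and *Irs2* and lowered *Gadd45a*. Both aldosterone comparisons use the same 4 aldosterone libraries, so they are not separate evidence. In all, 4 of the 10 genes were higher and 1 lower, with 4.93% and 3.96% of all genes in those directions. *Sesn1* again passed both thresholds, as did 1.38% of genes higher and 0.521% lower. *Sesn1* had 515.8, 564.2, 539.9 and 646.1 normalized counts with spironolactone and 1050.2 to 1408.1 with aldosterone (log2 fold change 1.10 ± 0.10, adjusted p = 5.42e-07). *Bnip3* (0.74 ± 0.08, adjusted p = 8.88e-06), *Foxo3* (0.63 ± 0.08, adjusted p = 2.11e-05) and *Irs2* (0.58 ± 0.09, adjusted p = 0.000156) were higher as log2 fold changes, though *Foxo3* had an adjusted p of 0.0585 with the plates averaged. For these 4 genes the groups did not overlap (6.76% of all genes were separate and higher, 6.22% separate and lower). *Gadd45a* was lower (-0.60 ± 0.15, adjusted p = 0.019), a call lost without any 1 of the 8 libraries (adjusted p from 0.0826, without spironolactone library 1_1, to 0.259, without spironolactone library 2_2). Its log2 fold change then ran from -0.722 to -0.429. With the plates averaged, the adjusted p of *Gadd45a* was 0.3.

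*Ddit4* (log2 fold change 0.21 ± 0.07, adjusted p = 0.0755) and *Sesn3* (-0.22 ± 0.08, adjusted p = 0.105) missed the threshold against spironolactone. With the sample number as a block both passed it, at adjusted p of 0.00856 and 0.000652, which made 5 genes higher and 2 lower; that block called 7.58% of all genes higher and 6.8% lower. With the plates averaged, their adjusted p were 0.265 and 0.505. *Sesn3* with spironolactone, at 3197.8, 2904.7, 3539.4 and 3714.4 normalized counts, overlapped with aldosterone at 2732.6, 2621.0, 3112.9 and 3017.7. Within each sample number the aldosterone libraries were lower (2 libraries against 2, with the share of all genes not counted). *Foxo1* (0.04 ± 0.10), *Fbxo32* (0.08 ± 0.11) and *Trim63* (1.48 ± 0.59, adjusted p = 0.161, with 0 reads in 1 spironolactone library, which allows up to 3) did not pass.

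Between spironolactone and vehicle none of the 10 genes passed (smallest adjusted p = 0.934) and all 10 overlapped, where 0% of all genes were called in either direction and 1.39% and 1.24% were separate and higher or lower. limma found 0 genes at the adjusted threshold, 1251 at an unadjusted p under 0.05 and 97 with the sample number as a block, while edgeR called 0 and DESeq2 13. The log2 fold changes ran from -0.16 for *Trim63* to 0.10 for *Irs2*. The intervals of *Sesn1* (-0.26 to 0.07) and *Bnip3* (-0.20 to 0.19) leave out changes as large as those seen with aldosterone. For *Sesn3* all spironolactone libraries of a sample number were below the vehicle libraries of that number, with a log2 fold change of -0.14 (95% interval -0.31 to 0.03). The share of all genes separated within the numbers was not counted.

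**Figure D2:**
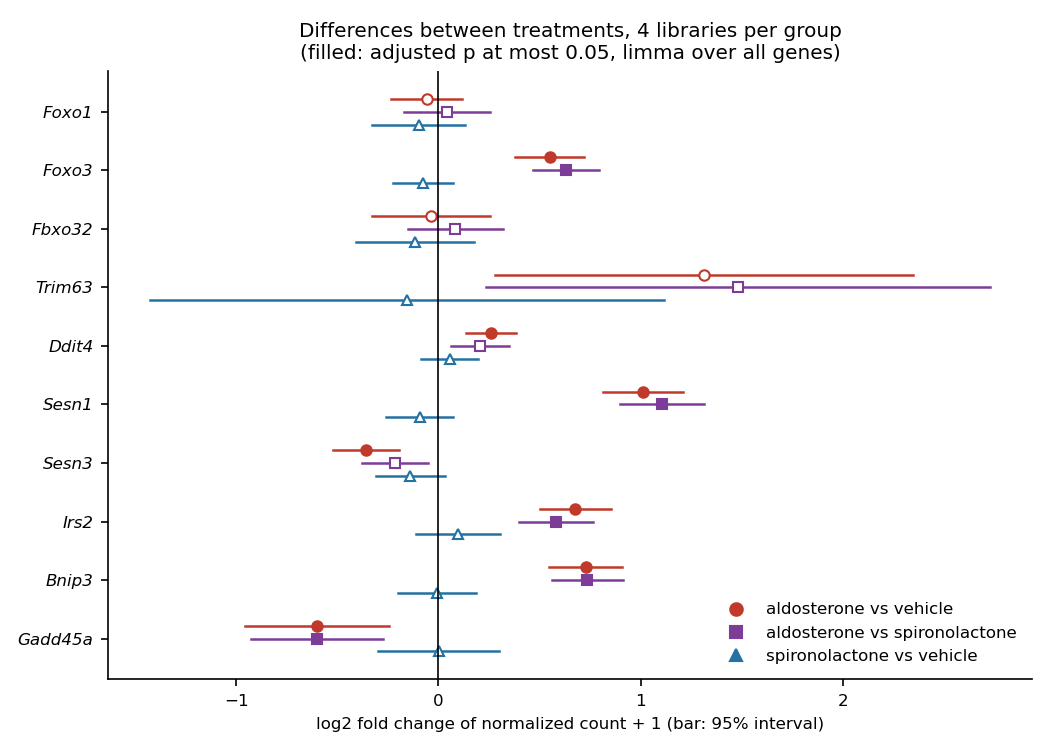
Log2 fold change of normalized count + 1 for each gene in the 3 treatment comparisons (symbols) with its 95% interval (bars), 4 libraries per group; filled symbols have an adjusted p of at most 0.05. The circles and squares of *Sesn1* lie near 1 and those of *Gadd45a* near -0.60, while every triangle (spironolactone over vehicle) is open and its bar crosses 0.

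The steroid response itself was large in the same libraries. Of 9 genes known to respond to the glucocorticoid or mineralocorticoid receptor, or encoding these receptors, 7 rose with aldosterone over vehicle and 1 fell, all 7 past both thresholds. *Fkbp5*, a chaperone of steroid receptors, went from 330.4 ± 38.7 to 6330.1 ± 472.7 normalized counts (log2 fold change 4.26 ± 0.08, adjusted p = 4.02e-15). *Zbtb16* rose by 6.67 and *Tsc22d3* by 2.69 on the log2 scale. *Nr3c1*, the glucocorticoid receptor, fell from 2880.3 ± 120.6 to 2169.8 ± 66.0 (log2 fold change -0.41 ± 0.05, adjusted p = 6.48e-05), and *Nr3c2*, the mineralocorticoid receptor, was at 37.5 ± 20.8 in vehicle and 14.5 ± 5.83 with aldosterone (adjusted p = 0.0853, or 0.00794 with the sample number as a block). Against spironolactone the counts were also 7 and 1.

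Other genes known as FoxO targets moved in both directions. Of 24 measured, 7 were higher, 2 lower and 15 did not pass against vehicle, with a median log2 fold change of 0.07. Across all genes, 5.68% were higher and 4.74% lower against vehicle, for this list and those below. The list was not split into genes that FoxO induces and genes it represses, so the counts do not measure FoxO activity. Among the higher genes was the cyclin *Ccnd1* (0.565, adjusted p = 4.98e-06). *Pdk4*, which blocks the use of pyruvate in mitochondria, rose from 283.8 ± 29.0 to 1878.6 ± 82.4 normalized counts (log2 fold change 2.73 ± 0.08, adjusted p = 6.08e-13). *Txnip*, an inhibitor of thioredoxin and glucose uptake, rose from 1427.6 ± 283.2 to 2955.6 ± 682.7 (1.04 ± 0.15, adjusted p = 0.000122), and *Klf6* rose by 0.48. *Prkaa2*, a catalytic subunit of AMPK, fell from 170.3 ± 21.4 to 83.0 ± 18.6 (-1.04 ± 0.16, adjusted p = 0.000309), and *Cited2* fell by 0.47 on the log2 scale. Against spironolactone 7 of 23 were higher and 2 lower. With the plates averaged, 3 were higher and 1 lower against vehicle, and the block on sample number gave 7 higher and 3 lower.

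Among 21 other ubiquitin ligases and atrophy genes of muscle, 4 were higher and 1 lower. The factors *Klf15* (217.0 ± 53.9 to 1011.9 ± 278.6 normalized counts, log2 fold change 2.21 ± 0.19, adjusted p = 4.71e-07) and *Cebpd* (1165.0 ± 142.9 to 3205.1 ± 461.0, 1.46 ± 0.10, adjusted p = 3.95e-08) rose, both known as glucocorticoid-induced regulators. So did *Cblb*, the ligase that degrades IRS1 (720.3 ± 60.6 to 1434.5 ± 46.7, log2 fold change 1.00 ± 0.07, adjusted p = 3.74e-08). *Klf15* stands in the steroid list as well. *Hdac4* fell (-0.30 ± 0.08, adjusted p = 0.0226), but no gene of the list was lower when any 1 library other than aldosterone 1_1 was left out, and *Nfe2l1* was at -0.11 (adjusted p = 0.228, or 0.0445 with the sample number as a block). That block called 6 of the list higher and 2 lower. The median was -0.005. Against spironolactone 3 were higher and 0 lower, and 5 higher and 1 lower with the sample number as a block.

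Of 27 autophagy and mitophagy genes measured, 6 were higher, 0 lower and 21 did not pass, with a median of 0.12 (8 higher and 0 lower with the sample number as a block). *Map1lc3b*, the LC3 protein of autophagosomes, went from 3856.9 ± 249.3 to 5077.8 ± 250.1 (log2 fold change 0.40 ± 0.06, adjusted p = 0.000227). *Pink1*, the kinase that marks damaged mitochondria, went from 2051.4 ± 79.1 to 2749.2 ± 239.2 (0.42 ± 0.06, adjusted p = 0.000304). The closest relative of *Bnip3*, *Bnip3l*, rose by 0.27. *Tfeb* at -0.24 and *Ulk1* at -0.05 had adjusted p of 0.193 and 0.797. Against spironolactone 6 of 27 were higher and 0 lower.

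In insulin and PI3K-AKT signalling, 2 of 24 genes were higher and 2 lower (3 and 5 with the sample number as a block), where 5.68% and 4.74% of all genes were higher and lower (8.68% and 8.02% with the block). *Sgk1*, the aldosterone-induced kinase that phosphorylates FoxO3, rose from 1477.7 ± 195.3 to 5810.4 ± 465.5 normalized counts (log2 fold change 1.98 ± 0.08, adjusted p = 1.04e-10). The PI3K subunits split: *Pik3r1* rose by 0.82 (adjusted p = 0.000963) and *Pik3r3* fell by 0.60 (adjusted p = 5.86e-05). Of 24 mTORC1 regulators, 4 were higher and 1 lower (2 lower with the block). *Deptor*, an inhibitor bound to mTOR, rose from 263.0 ± 29.1 to 864.5 ± 88.7 (1.71 ± 0.09, adjusted p = 2.69e-09), *Eif4ebp2* rose by 0.34, the lower gene was *Sesn2*, and *Tsc2* was at -0.13 (adjusted p = 0.166). The medians were -0.06 and 0.04. Against spironolactone 3 of 25 and 4 of 24 were higher and 1 of each list lower.

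The lists of p53 and ATF4 targets leave out the 10 genes, of which 5 rose and 2 fell. The listed targets that passed against vehicle were all lower. Of 16 p53 targets, 0 were higher and 3 lower (median -0.06; 1 and 4 with the block). *Tnfrsf10b* fell by 0.41 (adjusted p = 0.000387), *Sesn2* is one of the 3, and *Pmaip1* at 0.21 and *Phlda3* at 0.08 had adjusted p of 0.241 and 0.46. Of 15 ATF4 targets, 0 were higher and 6 lower, with a median of -0.28, and 11 were lower with the sample number as a block. *Mthfd2*, of mitochondrial folate metabolism, fell from 3157.0 ± 132.1 to 2466.0 ± 81.8 (log2 fold change -0.36 ± 0.05, adjusted p = 0.000242), and the amino acid transporter *Slc7a5* from 8182.6 ± 566.1 to 6269.5 ± 267.1 (-0.38 ± 0.06, adjusted p = 0.000312). The serine synthesis genes *Phgdh* (0.10, adjusted p = 0.363) and *Psat1* (0.01, adjusted p = 0.945) did not pass. Against spironolactone 9 of 15 ATF4 targets were lower, 13 with the block. The p53 counts there were 1 higher and 3 lower.

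The 15 HIF1 targets, with *Bnip3* set apart, split evenly, with 3 higher and 3 lower (5 and 4 with the block) and a median of 0.06. *Egln3*, an oxygen sensor, rose from 57.2 ± 13.5 to 134.4 ± 19.6 (log2 fold change 1.23 ± 0.18, adjusted p = 0.000195) and *P4ha2* rose by 0.54 (adjusted p = 0.00017), while *Vegfa* fell by 0.51 (adjusted p = 0.000486) and *P4ha1* by 0.26 (adjusted p = 0.00269). Against spironolactone 4 were higher and 2 lower. Of 11 close homologues of the 10 genes, 2 rose (*Foxo4* and *Bnip3l*) and 2 fell (*Sesn2* and *Gadd45b*, the latter by 0.21 with an adjusted p of 0.028), with 3 lower under the block, a median of -0.05, and 2 and 2 against spironolactone. With any 1 library left out, 0 or 1 of the homologues were lower against vehicle. Between spironolactone and vehicle 0 genes of any list passed, and 1 gene of the insulin list did with the block. Across all genes the block called 8.68% higher and 8.02% lower between aldosterone and vehicle.

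**Figure D3:**
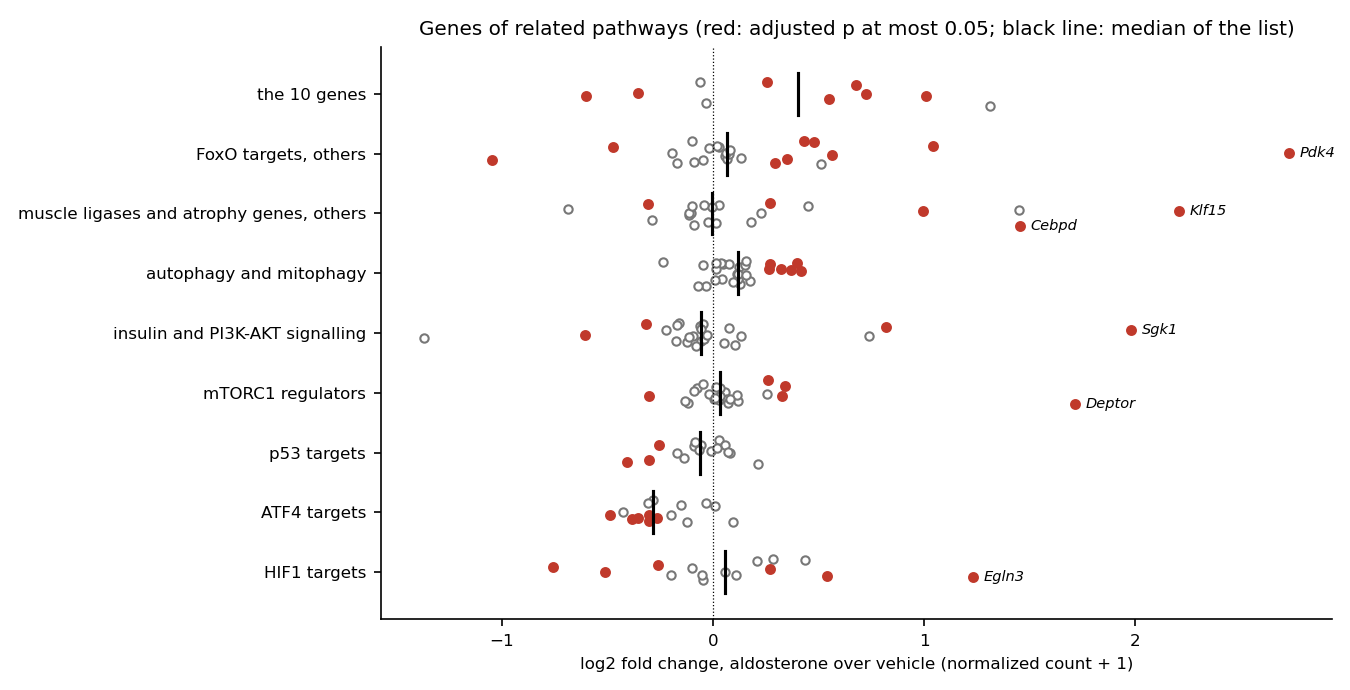
Log2 fold change, aldosterone over vehicle, of each measured gene in the 10-gene set and 8 related lists (rows), red where the adjusted p is at most 0.05; black lines are medians and labels name red points at 1.2 or more in size. The red points of the ATF4 and p53 targets lie left of 0 and those of the autophagy genes right of it, while the other lists have red points on both sides.

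Levels also differed between the sample numbers, a difference tested over all 12 libraries with treatment as a term after the values had been seen. *Sesn3* (log2 difference, sample 2 minus 1, 0.24 ± 0.03, adjusted p = 3.08e-05), *Gadd45a* (0.44 ± 0.09, adjusted p = 0.00238) and *Foxo3* (0.20 ± 0.04, adjusted p = 0.00213) were higher in sample 2 libraries, and *Fbxo32* (-0.32 ± 0.07, adjusted p = 0.00505) was lower. For these 4 genes the sample numbers did not overlap within any of the 3 treatments. Each such comparison sets 2 libraries against 2, and the share of all genes separated in this way was not counted. *Sesn1* was at 0.19 (adjusted p = 0.048), which exceeded 0.05 without any 1 of the 4 aldosterone libraries, vehicle 1_2 or 2_1, or spironolactone 1_1 or 2_2 (highest 0.127, without aldosterone 2_1) and was 0.0543 with the biological replicate number as a further term. *Foxo1* was at -0.19 (adjusted p = 0.0725, or 0.0421 without spironolactone 1_2, 0.0358 with genes under a mean of 10 reads left out and 0.0459 with the biological replicate number as a further term) and *Irs2* at 0.16 (0.126, or 0.0413 without spironolactone 2_2). Of all 25133 genes, 5.88% were higher and 6.54% lower. For *Fbxo32* this difference was larger in size than the log2 fold changes in the 3 treatment comparisons (-0.03, 0.08 and -0.12), and vehicle sample 1 libraries were at 332.2 and 337.6 normalized counts and sample 2 libraries at 235.5 and 220.1.

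The aldosterone effect itself was compared between sample numbers. *Sesn1* had a log2 fold change of 0.84 in sample 1 and 1.18 in sample 2, *Bnip3* 0.63 and 0.82, *Foxo3* 0.50 and 0.59, *Irs2* 0.74 and 0.62, *Sesn3* -0.32 and -0.39, *Gadd45a* -0.62 and -0.58, and *Fbxo32* -0.22 and 0.15. The difference passed for none of the 10 genes (smallest adjusted p = 0.895), and 0.0146% of all genes passed.

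*Sesn1* was the single gene of the 10 past both thresholds, and the genes whose pattern over the 12 libraries was nearest to it were searched among the 12297 genes averaging 50 or more reads. The measure was the mean absolute difference of centred log2(CPM + 1), and its median over all genes was 0.46. *Kif21a*, a kinesin motor, was nearest at 0.0717, followed by *Pdgfra*, a growth factor receptor that marks interstitial fibroblasts, at 0.0896 and the complement gene *C4b* at 0.0913. Their log2 fold changes over vehicle were 0.93, 0.91 and 1.09. The search used the same libraries, so values near that of *Sesn1* follow from how the genes were picked.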

How the data were processed

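Per the labels, 12 poly(A) libraries were sequenced on an Illumina instrument, and the submitters' processing notes name HISAT2 2.0.5, featureCounts 1.5.0-p3 and mm39. The study's methods name another build, mm9, whose gene starts differ from those in the tables (39 of 20676 matched genes share a start with NCBIM37), so gene positions are given as mm39. Whether counting used strand was not stated. The deposited values used here are a signal, normalized counts that the authors obtained by dividing gene counts by a size factor per library, separately for each pair of treatments. The tables also hold the authors' fold changes and p-values, which were not used. All per-sample columns were used.

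Whole reads were recovered from the steps between values (100% of values whole within 0.001 read). For 2 columns whose step is near 1 they came from the other table of the same library. limma 3.58.1 (R 4.3.3) was fitted with treatment as the only term to log2(normalized count + 1) of every gene in a table, with no filter and Benjamini-Hochberg adjustment. The fit was tried on simulated independent libraries with no difference in level between sample numbers. That trial cannot check the fit for plates that share a sample number. RPKM and CPM used TMM factors (edgeR 4.0.16). Alternatives were a pseudocount of 0.5, filters on low values, TMM scaling, edgeR, DESeq2 1.42.0 and limma-voom on recovered reads, replicate blocks, plates averaged or correlated, and leaving out each library. The averaged plates have 2 values per group. They were fitted with treatment as the only term, so differences in level between the sample numbers stayed in the error. The correlated plates and the tests on sample number were chosen after seeing the data.

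The labels do not say whether sample number or biological replicate number is the mouse. Deviations from the treatment means correlated between same-numbered libraries across treatments (r from 0.188 to 0.41 over 24 pairs, 15313 genes), so the sample number was used as a block; the mean for the biological replicate number was -0.00512. Named list genes were those past both thresholds (adjusted p of at most 0.05, log2 fold change of at least 1 in size) between aldosterone and vehicle and the 2 with the smallest adjusted p in each direction; other list genes were named after their values were seen. The 10 genes and the lists were chosen with earlier results of these data known. Marker genes absent from a table, among them *Pax7*, *Myf5* and *Ckm*, were not analysed here. For 1 gene of the insulin list, the values are not reported here.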

Additional observations from a re-analysis of the deposited data

Results flagged for a closer look

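Of 30 groups of 4 libraries over the 10 genes, 2 held a library far from the other 3, where chance gives about 1 in 20 groups. Both were *Irs2*. In the aldosterone group the library of sample 2, biological replicate 1 had 969.5 normalized counts, and its gap to the next library was 0.873 of the range of the group. In the spironolactone group, on the scale of the table with vehicle, the library with the same numbers had 735.8 normalized counts and a gap of 0.97 of the range. In vehicle the highest *Irs2* library was that of sample 2, biological replicate 2, at 663.4 normalized counts.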

How the results depend on the processing

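*Foxo3*, *Ddit4*, *Sesn1*, *Irs2* and *Bnip3* remained higher with aldosterone than with vehicle when any 1 library was left out. With the plates of a sample number averaged, 2 values per group, 3 of the 10 genes were higher and 0 lower against vehicle, and 3 and 0 against spironolactone, by adjusted p alone. By both thresholds, over all genes, 226 were higher and 51 lower against vehicle (382 and 182 with all plates) and 192 and 31 against spironolactone (381 and 144). Leaving out a library gave 0 to 1 lower genes of the 10 against vehicle and 0 against spironolactone by adjusted p alone, and 116 to 162 lower genes in all against vehicle by both thresholds. limma's prior degrees of freedom were then 2.36 to 3.23, against 9.75 with all libraries. limma-voom gave 1 lower gene of the 10 against vehicle, where *Gadd45a* had an adjusted p of 0.0689. By adjusted p alone, the share of all genes was not counted for averaged plates, left-out libraries or limma-voom. The counts over the 10 genes in those settings therefore have no matching share beside them. *Ddit4* passed against spironolactone with DESeq2 (0.0499) and with the biological replicate number as a block (0.0317).

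When sample number, or both numbers, formed a replicate block, 2 of the 10 genes were lower against spironolactone by adjusted p alone. The block on sample number called 6.8% of all genes lower there. By both thresholds the block on sample number called 2 of all genes lower between spironolactone and vehicle. Beside *Ddit4* and *Sesn3* against spironolactone, the block changed no other call on the 10 genes. Changes of sign were limited to genes that did not pass. Between spironolactone and vehicle, *Bnip3* (-0.007) was at 0 with TMM scaling and 0.004 with limma-voom, and *Gadd45a* (0.001) at -0.002 with edgeR and -0.004 with DESeq2. With a library left out, the log2 fold changes there ran from -0.084 to 0.059 for *Bnip3*, -0.149 to 0.123 for *Gadd45a*, -0.203 to 0.001 for *Foxo1* and -0.512 to 0.373 for *Trim63*. They ran from -0.144 to 0.061 for *Fbxo32* against vehicle and from -0.058 to 0.146 for *Foxo1* against spironolactone, and the differences between sample numbers from -0.056 to 0.009 for *Ddit4* and -0.072 to 0.031 for *Bnip3*. The cause was not tested.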
